A study of Homo sapiens with 6 samples.

Results

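The ubiquitin conjugating enzymes, ubiquitin ligases and deubiquitinases of SW480 cells were taken as the genes of the mRNA expression table whose symbol starts with UBE2, USP followed by a digit, TRIM followed by a digit, FBXO, FBXL, FBXW, CUL followed by a digit, or OTUD. This rule gave 118 of the 8529 genes of the table. They comprised 23 E2 conjugating enzymes, 3 cullins, 33 F-box proteins, 33 TRIM proteins, 22 USP deubiquitinases and 4 OTUD deubiquitinases. All 118 symbols were matched to RefSeq, which lists 269 protein-coding genes under the same prefixes, so the table holds fewer than all the members of these families. One of the 22 USP symbols, USP6NL, shares the prefix only, since it names a GTPase-activating protein, and lay at 0.13 to 0.64 FPKM.

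SW480 is an established line from a human colorectal adenocarcinoma. Wild-type SW480 cells were cultured for 72 h in wells coated with a soft hydrogel of 2 kPa or a stiff hydrogel of 25 kPa, and 3 RNA sequencing libraries were made at each stiffness. All wells shared the L-15 medium with fetal bovine serum and the CO2-free incubator, and the gel is the difference between the 2 groups that the labels give. A single cell line was used, and the labels do not say whether the 3 wells of a stiffness came from separate passages. The p-values here set the difference between the gels against the spread between these wells, partly pooled over genes. The comparison addressed how matrix stiffness alters gene expression in colorectal cancer cells.

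Ubiquitin is attached to proteins by a cascade in which an E1 enzyme activates it, an E2 enzyme carries it and an E3 ligase brings the loaded E2 to the substrate. Cullins are the scaffolds of the largest ligase family, F-box proteins are the substrate receptors of the ligases built on CUL1, and most TRIM proteins are single-chain ligases with a RING domain. Deubiquitinases of the USP and OTU families remove ubiquitin again, and the balance of attachment and removal sets the lifetime of cell cycle regulators and the repair of DNA.

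Expression was measured as FPKM, the fragments counted per kilobase of transcript and scaled to the mapped fragments of a library. This level per length allows for transcript length when genes are compared, and ranks by level here are ranks within this table. The FPKM of a library summed to between 201030 and 263028, and the median gene lay between 2.23 and 2.83 FPKM. No value was listed at 0. Within a group, Pearson's r between libraries on the log2(FPKM + 1) scale was 0.961 to 0.983 over the 118 members and 0.974 to 0.988 over all genes. Some genes used by every cell were listed at low values, such as GAPDH at 0.32 to 3.35 FPKM and the main ubiquitin-activating enzyme UBA1 at 0.06 to 0.81 FPKM, so a low level in this table need not be a low level in the cells. Of 12 epithelial and colon markers, 9 had a row. The libraries held the epithelial keratin gene KRT18 at 2611 to 3358 FPKM and EPCAM at 64.67 to 100.75 FPKM, whereas the colon differentiation markers KRT20 and CDX1 lay at or below 0.10 and 0.24 FPKM. KRT19 lay at 909.39 to 1623.44 FPKM, VIL1 at 13.95 to 23.51 FPKM and ASCL2, an intestinal stem cell factor, at 11.62 to 28.49 FPKM. Without overlap, ASCL2, KRT19 and CDX2 were lower at 25 kPa, with log2 fold changes of −0.95, −0.49 and −0.47 and adjusted p-values by limma of 0.0759, 0.537 and 0.224. CDX2 was low, at 0.57 to 0.79 FPKM at 2 kPa and 0.07 to 0.31 FPKM at 25 kPa. Of 10 fibroblast markers, 4 had a row, with a sum of 0.84 to 2.22 FPKM at 2 kPa and 2.93 to 3.20 at 25 kPa, most of it ACTA2. Of 8 leukocyte markers, 3 had a row, with a sum of 3.98 to 5.47 FPKM at 2 kPa and 2.39 to 3.59 at 25 kPa, most of it LYZ. The part of these markers in the values of the members was not tested.

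UBE2T, the E2 enzyme of the Fanconi anaemia repair pathway, FBXO5, an inhibitor of the anaphase-promoting complex, CUL4B, a nuclear cullin, and USP16, a histone H2A deubiquitinase, were higher on the stiff gel by 1.43 to 1.94 times in mean FPKM. The glycoprotein receptor FBXO2, FBXL8, TRIM47 and the deubiquitinase USP5 were higher on the soft gel, by 1.51 to 1.72 times. These 8 genes had an unadjusted p under 0.05 in limma, 4 in each direction, and 0 of the 118 members passed an adjusted p under 0.05 by limma with Benjamini-Hochberg adjustment over all genes. Of all genes, 0.117% passed the adjusted threshold. The 4 members that were higher made up 3.39% of the members, against 6.96% of all genes, and the 4 that were lower made up 3.39%, against 3.19% of all genes. The first share was below its background and the second close to it, so the counts do not set the families apart from the table as a whole. DESeq2, the tool of the study's methods, needs counts and was not run.

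The 3 libraries at 25 kPa all lay above the 3 at 2 kPa for 12 members (10.2%; 11.2% of all genes) and all lay below them for 4 members (3.39%; 4.78% of all genes). These shares were again close to the background. The median log2 fold change over the members was 0.02, with 62 of 118 above 0 (52.5%), and over all genes it was 0.05, with 5081 of 8529 above 0 (59.6%). By class, the median was 0.13 for the E2 enzymes, 0.22 for the 3 cullins, −0.01 for the F-box proteins, −0.02 for the USP genes and 0.06 for the OTUD genes, and for the TRIM proteins 16 of 33 lay above 0. Fold changes are given throughout as 25 kPa over 2 kPa and as differences of log2(FPKM + 1), which makes the change of low genes look smaller, and each rank of fold changes is on that scale. In bulk RNA, fewer cells of a kind and less RNA per cell cannot be told apart.

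**Figure D1:**
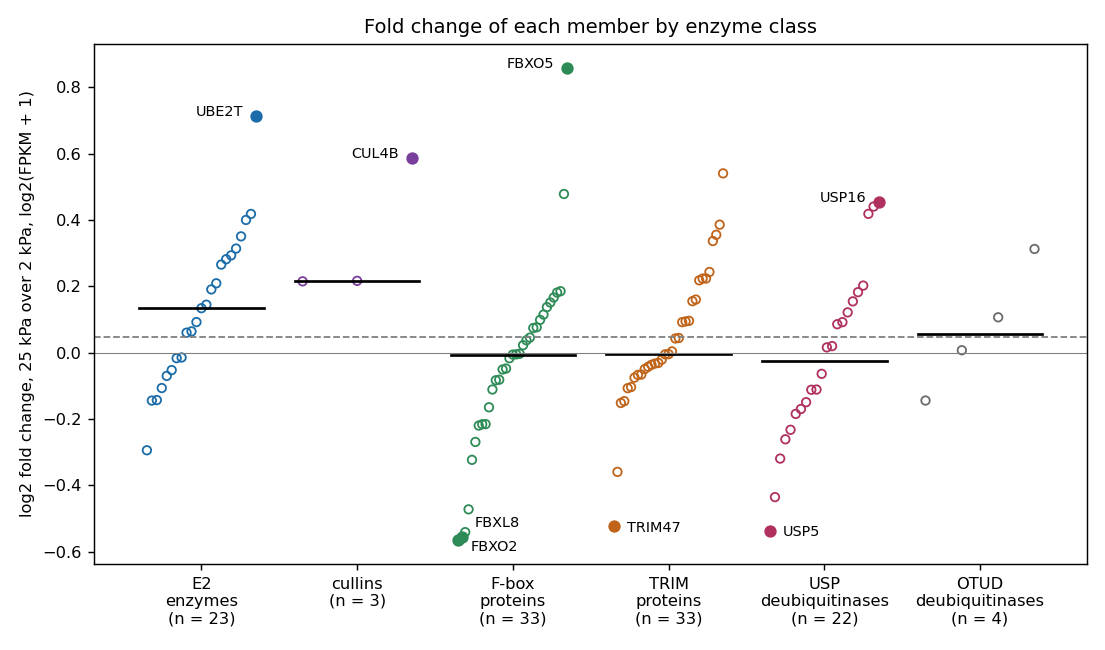
Log2 fold change of each of the 118 members (25 kPa over 2 kPa, log2(FPKM + 1) scale) by enzyme class, with the members of a class in rising order. Filled points have an unadjusted p under 0.05 in limma, short black lines are class medians and the dashed line is the median of all genes, 0.05. The E2 median (0.13) lies above the dashed line, and each of the larger classes spans both sides of 0.

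The members that were higher with the smallest p-values were CUL4B, UBE2T and FBXO5, and their promoters are shown because these 3 genes of different classes were higher together. The sequences are from RefSeq (GRCh38.p14), 250 bases up to the annotated start, written 5′ to 3′ on the strand of the gene. Capitals mark 2 motifs, each searched on both strands. One is CCAAT, the box bound by the factor NF-Y. The other is TTTGAA, known as the cell cycle genes homology region. On the opposite strand the box reads as ATTGG, and the homology region then reads as TTCAAA.

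UBE2T (chr1:202341937-202342186, minus strand): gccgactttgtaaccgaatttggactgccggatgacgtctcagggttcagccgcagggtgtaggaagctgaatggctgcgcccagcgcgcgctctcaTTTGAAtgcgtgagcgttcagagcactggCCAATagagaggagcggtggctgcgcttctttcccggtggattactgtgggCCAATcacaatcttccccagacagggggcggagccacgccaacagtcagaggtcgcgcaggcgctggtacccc
FBXO5 (chr6:152983042-152983291, minus strand): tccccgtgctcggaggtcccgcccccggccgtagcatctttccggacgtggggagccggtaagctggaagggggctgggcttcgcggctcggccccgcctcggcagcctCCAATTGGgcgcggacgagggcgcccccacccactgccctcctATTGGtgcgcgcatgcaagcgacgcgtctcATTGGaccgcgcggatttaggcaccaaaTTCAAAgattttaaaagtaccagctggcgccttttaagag
CUL4B (chrX:120575533-120575782, minus strand): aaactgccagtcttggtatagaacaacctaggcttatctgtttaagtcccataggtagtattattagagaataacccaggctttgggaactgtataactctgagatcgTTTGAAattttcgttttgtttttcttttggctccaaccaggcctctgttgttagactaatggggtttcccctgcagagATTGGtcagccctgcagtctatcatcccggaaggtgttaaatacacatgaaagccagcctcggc

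The UBE2T window held CCAAT 124 and 73 bases before the start and TTTGAA 153 bases before it. FBXO5 has 2 windows in RefSeq, and CUL4B has 4. The window shown was picked for having the most matches to the 2 motifs, so that these windows hold motifs follows in part from the choice. For each gene it is the only one that held both motifs, but another window of CUL4B held as many matches. That of FBXO5 held 4 CCAAT matches, a pair of them overlapping on opposite strands as CCAATTGG, with TTTGAA 40 bases before the start. The other window of FBXO5 held neither motif. The CUL4B window shown held CCAAT 64 and TTTGAA 142 bases before the start, while of the other 3 windows 2 held neither motif and 1 held 2 CCAAT matches. Both motifs together were found in 5.90% of all 35116 promoter windows, which run from 250 bases before to 50 bases after a start, and in 6 of the 126 windows of the 91 members that have one (4.76%). The other genes with both were FBXL14, TRIM39 and TRIM66, of which TRIM66 had the log2 fold change farthest from 0, at −0.05. CCAAT alone was found in 34.6% of all windows and 29.4% of the members' windows, so both shares of the members lay below those of all windows. The window of USP16 held neither motif, and that of USP5, which was lower at 25 kPa, held 3 CCAAT matches. Those of FBXO2 and TRIM47, also lower at 25 kPa, held neither motif. A match to these letters describes the sequence and is not a measured binding site.

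Among the 23 E2 enzymes, 15 had a log2 fold change above 0 (65.2%, against 59.6% of all genes). The groups did not overlap for 4, all of these higher at 25 kPa, where 11.2% of all genes were higher without overlap. UBE2S, which extends ubiquitin chains on substrates of the anaphase-promoting complex, had the highest level of any member. It was at 238.68, 182.45 and 202.43 FPKM in replicates 1, 2 and 3 at 2 kPa and at 305.08, 312.18 and 213.50 FPKM at 25 kPa. Replicate 3 at 25 kPa lay below replicate 1 at 2 kPa, so the groups overlapped. The log2 fold change was 0.40 ± 0.18 (SE), with an unadjusted p of 0.0558 and an adjusted p of 0.512 by limma. The 95% confidence interval ran from −0.01 to 0.81. In RefSeq UBE2S overlaps RPL28, an abundant ribosomal protein gene, and whether the libraries keep the strand is not given in the sources used here.

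UBE2T was the second E2 enzyme by level and had the largest fold change of the class. It was at 39.08, 25.02 and 33.59 FPKM at 2 kPa and at 63.45, 49.98 and 47.35 FPKM at 25 kPa. Every library at 25 kPa lay above every library at 2 kPa. The mean was 32.6 ± 7.09 FPKM (SD, n = 3) on the soft gel and 53.6 ± 8.64 FPKM (SD, n = 3) on the stiff gel. The log2 fold change was 0.71 ± 0.18 (SE) with an unadjusted p of 0.00345, and the adjusted p was 0.218 by limma. The unadjusted p was under 0.05 in 17 of 17 alternative settings, with adjusted p between 0.156 and 0.565.

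Next by level came UBE2Z, which takes ubiquitin and the modifier FAT10 from the E1 enzyme UBA6. It was at 38.86, 48.09 and 37.70 FPKM at 2 kPa and 36.72, 37.60 and 40.67 FPKM at 25 kPa. These groups overlapped, with a log2 fold change of −0.11 ± 0.12 (SE). UBE2M, the E2 enzyme of NEDD8 that activates cullins, was at 27.1 ± 2.00 FPKM at 2 kPa and 30.0 ± 3.59 FPKM at 25 kPa (SD, n = 3). UBE2L6, the interferon-inducible E2 enzyme of ISG15, stood low at 0.32 to 0.74 FPKM. None of these 3 E2 enzymes of other modifiers had an unadjusted p under 0.05.

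The E2 enzymes UBE2A and UBE2B ubiquitinate the replication clamp PCNA, and UBE2N and UBE2V2 join to extend the chain on it. All 4 had log2 fold changes above 0, from 0.19 to 0.35, as did 59.6% of all genes. UBE2N was at 18.57, 13.23 and 16.89 FPKM at 2 kPa and at 22.04, 20.24 and 18.56 FPKM at 25 kPa. Its groups met at 18.57 and 18.56 FPKM and so overlapped by 0.01 FPKM. UBE2V2 was without overlap, at 1.14 to 1.29 FPKM at 2 kPa and 1.47 to 2.08 FPKM at 25 kPa. Its log2 fold change was 0.29, and 0.11 with the GC trend removed. The smallest unadjusted p of these 4 genes was 0.0663 for UBE2N, and the smallest adjusted p by limma was 0.535.

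The UBE2D and UBE2E enzymes, which serve many RING ligases, were low in this table, with means of 1.20 to 2.26 FPKM. Of the 4 with a row, UBE2E3 had the largest log2 fold change of the list, at 0.42 ± 0.26 (SE), and UBE2D2 the smallest, at −0.14 ± 0.24 (SE). UBE2E1 was at 0.89, 2.01 and 0.25 FPKM at 2 kPa, a spread of 8.04 times within 1 group. Genes of the UBE2D family are close paralogs, and how the counting divided reads between them is not given in the sources used here. The lowest log2 fold change of an E2 enzyme was that of UBE2J1, an enzyme of the endoplasmic reticulum, at −0.29 ± 0.22 (SE), and rested on values of 0.10 to 1.13 FPKM. UBE2QL1 was the lowest E2 gene, at 0.107 FPKM over the 6 libraries.

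The other E2 genes without overlap were UBE2L3, which works with HECT and RBR ligases, and UBE2G2, which works in the degradation of proteins from the endoplasmic reticulum. Both are named after their values were seen. UBE2L3 was at 19.89 to 20.99 FPKM at 2 kPa and at 23.14 to 25.57 FPKM at 25 kPa. UBE2G2 had a mean of 11.2 ± 1.20 FPKM at 2 kPa and 13.7 ± 0.692 FPKM at 25 kPa (SD, n = 3). Their adjusted p-values by limma were 0.569 and 0.530. With the FPKM rescaled to equal library sums, their log2 fold changes were 0.09 and 0.17, and the median over the E2 enzymes was 0.02 in place of 0.13.

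**Figure D2:**
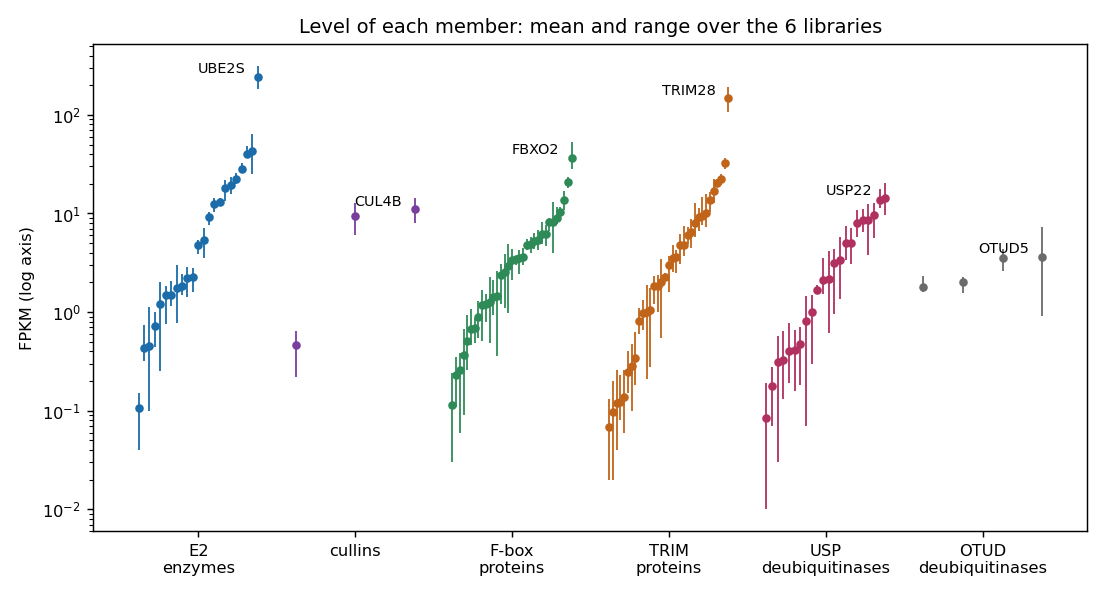
Level of each of the 118 members in FPKM (log axis) by class, in rising order within a class, with the mean of the 6 libraries as a point and the lowest to highest library as a line. The highest member of each class is named. UBE2S (182.45 to 312.18 FPKM) and TRIM28 (106.77 to 191.57 FPKM) stand above all others, and 33 members have a mean below 1 FPKM.

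Of the cullins, 3 had a row, and all 3 had a log2 fold change above 0. CUL4B, the scaffold that binds substrates through the adaptor DDB1, was at 9.35, 7.93 and 8.62 FPKM at 2 kPa and at 12.61, 14.19 and 13.58 FPKM at 25 kPa. The groups did not overlap, and the gap between them was wider than the range within either. The mean was 8.63 ± 0.710 FPKM (SD, n = 3) on the soft gel and 13.5 ± 0.797 FPKM (SD, n = 3) on the stiff gel, a ratio of 1.56. Its log2 fold change of 0.59 ± 0.13 (SE) had an unadjusted p of 0.00199 and an adjusted p of 0.181 by limma, the smallest of all members. The unadjusted p was under 0.05 in 17 of 17 alternative settings, with adjusted p between 0.137 and 0.533.

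CUL3, the scaffold of ligases with BTB-domain receptors, had a mean of 8.78 ± 3.43 FPKM at 2 kPa and 10.1 ± 2.50 FPKM at 25 kPa (SD, n = 3). Its groups overlapped, with a log2 fold change of 0.22 ± 0.27 (SE). CUL2, the scaffold of the VHL ligase, was low, with a mean of 0.360 ± 0.128 FPKM at 2 kPa and 0.577 ± 0.110 FPKM at 25 kPa (SD, n = 3). On the scale used, with 1 added to each value, the log2 fold change was 0.22 ± 0.12 (SE), and its groups overlapped. With a pseudocount of 0.1 in place of 1, the median over the 3 cullins was 0.58. CUL2 and CUL3 had adjusted p-values of 0.593 and 0.862 by limma.

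The partners of the cullins were listed as 33 genes, of which 22 had a row. Their median log2 fold change was 0.03, with 13 of 22 above 0 (59.1%, against 59.6% of all genes). In each direction 1 gene had an unadjusted p under 0.05 in limma, where 6.96% of all genes were higher and 3.19% lower. Without overlap, 4 of the 22 were higher and 2 lower, where 11.2% of all genes were higher and 4.78% lower. The adaptor DDB1 was at 126.76 to 142.09 FPKM and the adaptor SKP1 at 78.58 to 100.81 FPKM over the 6 libraries. DDB1 had means of 137 ± 3.08 FPKM at 2 kPa and 133 ± 7.83 FPKM at 25 kPa (SD, n = 3), and its groups overlapped. CCNF, an F-box protein active in the cell cycle whose symbol lies outside the prefixes, was at 10.99, 12.06 and 8.88 FPKM at 2 kPa and at 14.36, 17.15 and 13.71 FPKM at 25 kPa. Its log2 fold change was 0.47 ± 0.16 (SE) with an unadjusted p of 0.0156 and an adjusted p of 0.352 by limma. DCUN1D3, which acts in the NEDD8 modification of cullins, was lower at 25 kPa without overlap, with a log2 fold change of −0.33 ± 0.12 (SE) and an adjusted p of 0.420.

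Among the 33 F-box genes, 14 had a log2 fold change above 0 (42.4%, against 59.6% of all genes). FBXO5, also known as EMI1, was at 7.06, 5.65 and 3.99 FPKM at 2 kPa and at 13.21, 9.64 and 9.57 FPKM at 25 kPa. All libraries on the stiff gel lay above all on the soft gel. The mean was 5.57 ± 1.54 FPKM (SD, n = 3) on the soft gel and 10.8 ± 2.08 FPKM (SD, n = 3) on the stiff gel, a ratio of 1.94. The fitted log2 fold change was 0.86 ± 0.22 (SE), the largest of all members at a pseudocount of 1 but not at 0.1 or 0.01, with an unadjusted p of 0.00361 and an adjusted p of 0.220 by limma. The unadjusted p was under 0.05 in 17 of 17 alternative settings, with adjusted p between 0.151 and 0.589.

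FBXO2, which recognises sugar chains on misfolded glycoproteins, was the highest F-box gene. It was at 37.45, 53.27 and 42.50 FPKM at 2 kPa and at 28.11, 31.67 and 28.44 FPKM at 25 kPa. The groups did not overlap, and the libraries on the stiff gel were close together. The mean was 44.4 ± 8.08 FPKM (SD, n = 3) on the soft gel and 29.4 ± 1.97 FPKM (SD, n = 3) on the stiff gel. Its log2 fold change was −0.57 ± 0.14 (SE) with an unadjusted p of 0.00356 and an adjusted p of 0.218 by limma. Its p was under 0.05 in 17 of 17 alternative settings, with adjusted p between 0.152 and 0.557.

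Of the relatives of FBXO2 in its subfamily, FBXO17, FBXO44 and FBXO27 had a row. FBXO17 was second by level, with means of 20.7 ± 2.34 FPKM at 2 kPa and 21.3 ± 2.05 FPKM at 25 kPa (SD, n = 3). FBXO44 was at 0.94, 2.25 and 1.75 FPKM at 2 kPa and at 0.75, 0.49 and 1.49 FPKM at 25 kPa. These groups overlapped, with a log2 fold change of −0.47 ± 0.27 (SE). FBXO27 was the lowest F-box gene, at 0.113 FPKM. FBXO2 and FBXO44 lie head to head on chromosome 1 on opposite strands, with RefSeq starts 22 bases apart so that the transcripts overlap at their first bases, and without a stated strand their reads cannot be told apart there.

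FBXL8 was at 3.09, 2.76 and 3.07 FPKM at 2 kPa and at 1.21, 2.12 and 1.85 FPKM at 25 kPa. The groups did not overlap, and its log2 fold change was −0.56 ± 0.22 (SE) with an unadjusted p of 0.0355 and an adjusted p of 0.444 by limma. FBXL8 overlaps HSF4, a heat shock factor gene, on the same strand, so the counting could assign shared reads to either. HSF4 was at 3.02, 3.12 and 3.07 FPKM at 2 kPa and at 6.32, 6.38 and 6.95 FPKM at 25 kPa, the opposite order to FBXL8. Its log2 fold change was 0.89 ± 0.18 (SE) with an adjusted p of 0.120 by limma. The unadjusted p of FBXL8 was under 0.05 in 12 of 17 alternative settings, and it was 0.145 without replicate 1 at 25 kPa.

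**Figure D3:**
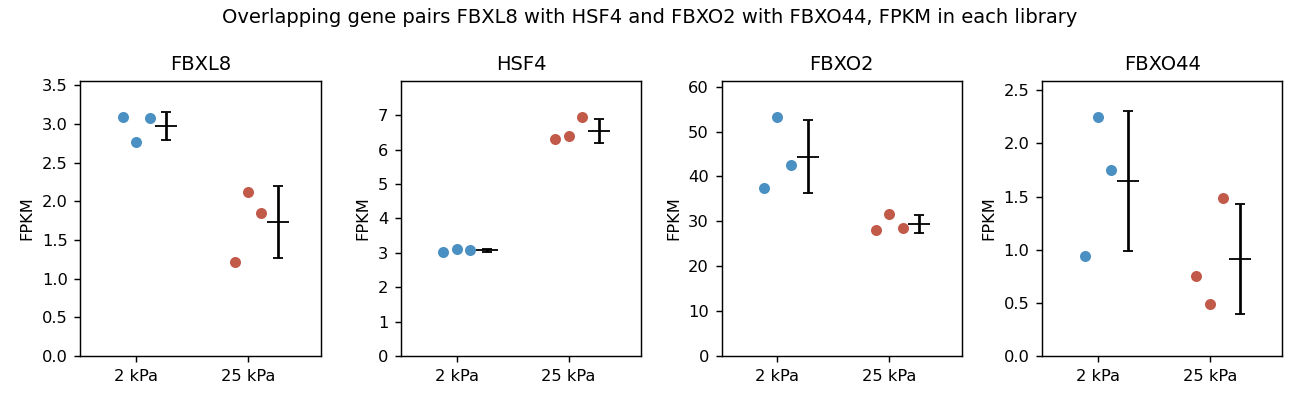
FPKM in each library of 2 pairs of overlapping genes, FBXL8 with HSF4 and FBXO2 with FBXO44, at 2 kPa (blue) and 25 kPa (red), with the mean and SD (n = 3) beside the points. FBXL8 is lower at 25 kPa while HSF4 is higher, and FBXO2 and FBXO44 both have a lower mean at 25 kPa, with the groups of FBXO44 overlapping.

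The FBXL genes, receptors with leucine-rich repeats, had a median log2 fold change of −0.16, with 1 of 7 above 0. FBXL19 was second lowest of the 7, at −0.54 ± 0.36 (SE), with values of 0.97 to 4.95 FPKM. The median GC content of the FBXL transcripts was 65.6%, against 51.0% for all genes. The 23 FBXO genes had 11 above 0 and the 3 FBXW genes 2. Within FBXW, FBXW2 was without overlap at 2.01 ± 0.788 FPKM at 2 kPa and 3.12 ± 0.647 FPKM at 25 kPa (SD, n = 3). Its adjusted p was 0.596 by limma.

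Of 4 listed genes of muscle wasting, 3 had a row, which were the F-box genes FBXO32, also known as atrogin-1, and FBXO30, and TRIM63. FBXO32 was at 0.47, 1.08 and 0.88 FPKM at 2 kPa and at 0.46, 0.52 and 0.64 FPKM at 25 kPa. FBXO30 had means of 3.46 ± 0.885 FPKM and 3.69 ± 0.885 FPKM (SD, n = 3). TRIM63 lay at 0.08 to 0.23 FPKM. Groups overlapped for all 3, and the smallest adjusted p of the list was 0.715 by limma.

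Among the 33 TRIM genes, 16 had a log2 fold change above 0 (48.5%, against 59.6% of all genes). At 25 kPa 2 were higher and 2 lower without overlap, where 11.2% of all genes were higher and 4.78% lower. TRIM28, the corepressor of KRAB zinc finger proteins, was by far the highest. Its mean was 149 ± 42.4 FPKM at 2 kPa and 146 ± 11.1 FPKM at 25 kPa (SD, n = 3). This gave a log2 fold change of 0.00 with a 95% interval from −0.45 to 0.46, so a difference within that interval was not detectable with these libraries. TRIM16 was second, at 29.7 ± 1.47 FPKM at 2 kPa and 34.9 ± 1.68 FPKM at 25 kPa (SD, n = 3), without overlap. TRIM4 came next, at 23.4 ± 1.62 FPKM at 2 kPa and 21.0 ± 1.27 FPKM at 25 kPa (SD, n = 3), without overlap in the other direction. Their adjusted p-values by limma were 0.525 and 0.732. TRIM16 and TRIM74 each have a close copy in the genome, so reads of these genes may have been divided between copies.

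TRIM47 was the only TRIM gene with an unadjusted p under 0.05 among the 33. It was at 12.79, 8.72 and 7.79 FPKM at 2 kPa and at 6.84, 6.45 and 5.79 FPKM at 25 kPa. The groups did not overlap, but replicate 1 at 2 kPa stood well above the other libraries of its group. Its log2 fold change was −0.52 ± 0.20 (SE) with an unadjusted p of 0.0272 and an adjusted p of 0.409 by limma. Without replicate 1 at 2 kPa, the log2 fold change was −0.33 with an unadjusted p of 0.127 in limma. The largest log2 fold change of the class was that of TRIM52, at 0.54 ± 0.29 (SE), and its adjusted p was 0.579. TRIM52 was at 0.21, 0.30 and 1.48 FPKM at 2 kPa and at 1.90, 1.05 and 1.02 FPKM at 25 kPa, so replicate 3 at 2 kPa lay within the other group. The log2 fold change of TRIM52 was 1.24 and 1.45 with pseudocounts of 0.1 and 0.01, and 0.87 without that library, with an adjusted p of 0.266 by limma.

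The interferon-inducible genes of the set were UBE2L6, TRIM5, TRIM14, TRIM21 and TRIM25, 5 of 9 listed. TRIM25, which ubiquitinates the RNA sensor RIG-I, was at 9.16, 15.66 and 7.33 FPKM at 2 kPa and at 9.03, 7.89 and 11.75 FPKM at 25 kPa. TRIM21, the cytosolic antibody receptor, was at 6.71 to 11.39 FPKM over the 6 libraries. TRIM5 and TRIM14 stayed below 1 FPKM. The median log2 fold change of the 5 was −0.07, and 0 had an unadjusted p under 0.05 in limma, with 0 by the adjusted p.

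The TRIM genes with a COS box, which binds microtubules, were near the floor of the table. TRIM9, TRIM54 and TRIM63, the 3 of 7 listed that had a row, lay between 0.02 and 0.26 FPKM. TRIM66, a relative of TRIM28, was the lowest TRIM gene at 0.0683 FPKM. At such levels a log2(FPKM + 1) fold change cannot move far from 0, and those of the 3 COS-box genes ranged from −0.07 to 0.04.

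Among the 22 USP genes, 11 had a log2 fold change above 0 (50%, against 59.6% of all genes) and 11 below. USP22, the deubiquitinase of the SAGA coactivator, was the highest at 13.9 ± 5.56 FPKM at 2 kPa and 14.6 ± 1.72 FPKM at 25 kPa (SD, n = 3). USP12 and USP34 followed, with log2 fold changes of 0.15 ± 0.18 and 0.20 ± 0.31 (SE). All 3 had groups that overlapped. USP31 was the lowest USP gene, at 0.0850 FPKM.

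USP16, which removes ubiquitin from histone H2A, was at 5.71, 7.20 and 6.68 FPKM at 2 kPa and at 10.75, 8.97 and 8.26 FPKM at 25 kPa. The groups did not overlap. The mean was 6.53 ± 0.756 FPKM (SD, n = 3) on the soft gel and 9.33 ± 1.28 FPKM (SD, n = 3) on the stiff gel. The fitted log2 fold change was 0.45 ± 0.17 (SE), the largest of the class, with an unadjusted p of 0.0239 and an adjusted p of 0.400 by limma. The unadjusted p was under 0.05 in 11 of 17 alternative settings, and it was 0.134 with the FPKM rescaled to equal library sums.

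USP5, which takes apart free ubiquitin chains, had the lowest log2 fold change of the class. It was at 6.01, 7.13 and 5.19 FPKM at 2 kPa and at 3.58, 3.07 and 5.19 FPKM at 25 kPa. Replicate 3 of the 2 groups had the same value, so the groups touched. Its log2 fold change was −0.54 ± 0.22 (SE) with an unadjusted p of 0.0397 and an adjusted p of 0.457 by limma. The unadjusted p was under 0.05 in 11 of 17 alternative settings, and without replicate 2 at 25 kPa the log2 fold change was −0.41 with an unadjusted p of 0.115.

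USP1 removes the ubiquitin that UBE2T places on the Fanconi anaemia protein FANCD2. USP1 was at 0.65, 1.06 and 0.88 FPKM at 2 kPa and at 1.46, 0.07 and 0.78 FPKM at 25 kPa. Its 25 kPa libraries spanned the range of the other group, and its log2 fold change was −0.15 ± 0.28 (SE), against 0.71 ± 0.18 (SE) for UBE2T. With a pseudocount of 0.1 in place of 1, the log2 fold changes were −0.62 for USP1 and 0.73 for UBE2T. The difference between these genes was not tested. USP15, the other USP gene without overlap, had a mean of 1.66 ± 0.195 FPKM at 2 kPa and 2.60 ± 0.824 FPKM at 25 kPa (SD, n = 3) and an adjusted p of 0.596 by limma.

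The 4 OTUD genes lay between 1.79 and 3.64 FPKM on average, and all 4 had groups that overlapped. OTUD5, which regulates innate immune signalling, was at 3.12, 7.36 and 0.91 FPKM at 2 kPa and at 3.38, 4.86 and 2.20 FPKM at 25 kPa. Its highest and lowest libraries at 2 kPa differed by 8.09 times, the widest spread within a group at 2 kPa among members of at least 1 FPKM. OTUD6B had the largest log2 fold change of the class, at 0.31 ± 0.21 (SE), and OTUD1 the smallest, at −0.14 ± 0.20 (SE). OTUD3 had means of 2.01 ± 0.381 FPKM and 2.03 ± 0.396 FPKM (SD, n = 3).

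**Figure D4:**
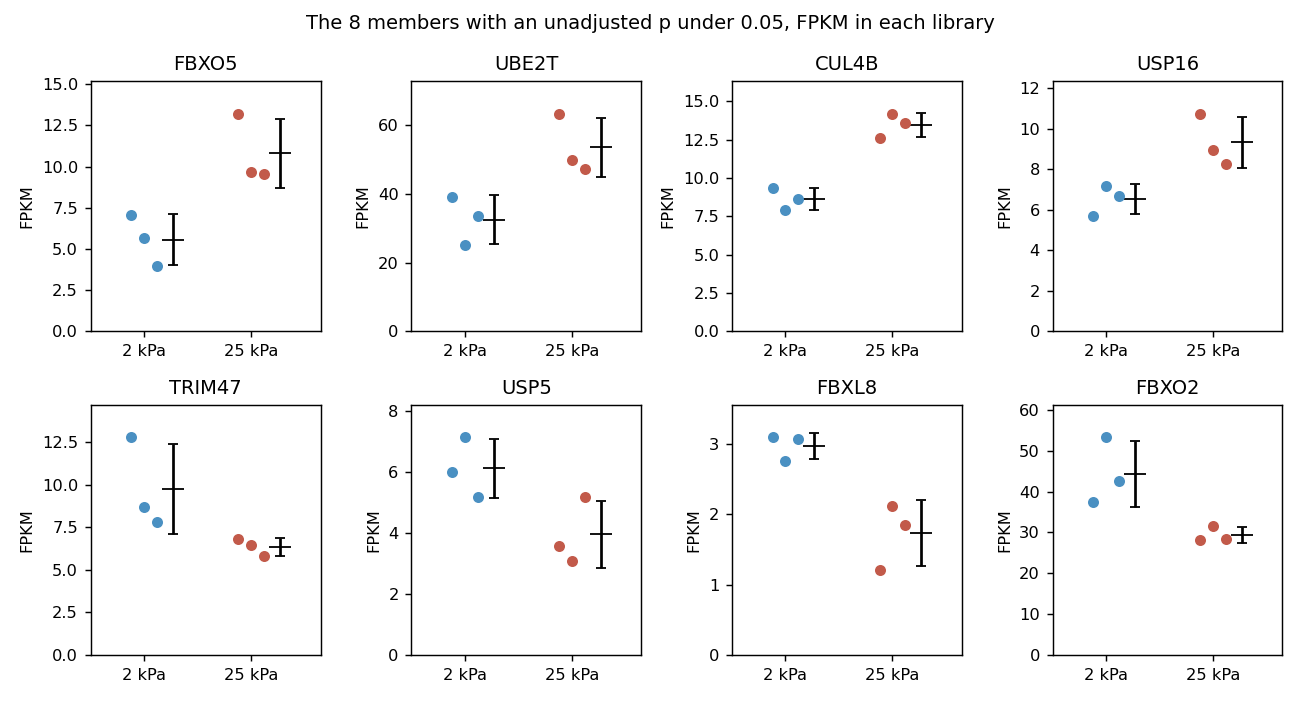
FPKM in each library of the 8 members with an unadjusted p under 0.05 in limma, at 2 kPa (blue) and 25 kPa (red), with replicates 1, 2 and 3 from left to right and the mean and SD (n = 3) beside the points. Each axis starts at 0. FBXO5, UBE2T, CUL4B and USP16 do not overlap and are higher at 25 kPa, TRIM47, FBXL8 and FBXO2 do not overlap and are lower, and USP5 has 1 library of each group at the same level, 5.19 FPKM.

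The enzymes of the same cascade outside the prefixes had 0 adjusted calls by limma in each list. Of 20 E1 enzymes and modifiers, 17 had a row and 10 of these lay above 0 (58.8%, against 59.6% of all genes). UBA6, the second ubiquitin-activating enzyme and the partner of UBE2Z, was at 4.86, 5.14 and 4.09 FPKM at 2 kPa and at 7.63, 5.41 and 7.90 FPKM at 25 kPa. It was without overlap, with an unadjusted p of 0.0396 and an adjusted p of 0.456 by limma. Of the HECT ligases 12 of 28 and of the RBR ligases 5 of 13 had a row, with medians of 0.09 and 0.04 and 0 genes with an unadjusted p under 0.05. The HECT list ran from −0.18 for HERC1 to 0.33 for G2E3 and the RBR list from −0.21 for RNF144B to 0.15 for RNF31.

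The anaphase-promoting complex, which FBXO5 inhibits and for which UBE2S extends chains, was listed as 16 subunits and activators. Of the 9 with a row, 8 lay above 0 (88.9%, against 59.6% of all genes), with a median log2 fold change of 0.24. A shared change of this list was not tested. CDC20, its mitotic activator, was at 65.08, 69.00 and 51.22 FPKM at 2 kPa and at 90.54, 98.52 and 83.58 FPKM at 25 kPa. CDC20 was without overlap, with a log2 fold change of 0.56 ± 0.14 (SE), an unadjusted p of 0.0031 and an adjusted p of 0.211 by limma. ANAPC7, a subunit listed at 0.13 to 0.52 FPKM at 2 kPa and 0.69 to 1.43 FPKM at 25 kPa, was also without overlap, with an adjusted p of 0.356 by limma. Of 9 listed cell cycle members of the set, 4 had a row (UBE2S, UBE2T, FBXO5 and USP1), and 3 lay above 0. Of the other deubiquitinases, 13 of 27 had a row and 9 of these lay above 0 (69.2%). PSMD14, the deubiquitinase of the proteasome lid, was at 76.2 ± 8.66 FPKM at 2 kPa and 105 ± 7.43 FPKM at 25 kPa (SD, n = 3), with an adjusted p of 0.244 by limma.

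The fold changes of the members varied with the GC content of their transcripts. Across 117 members, Pearson's r between the log2 fold change and GC content was −0.508, and across 8183 genes it was −0.309. These are correlations across genes of the same 6 libraries, and genes are not independent replicates. The 4 members that were higher had a GC content of 37.9% to 43.3%, and the 4 that were lower had 57.8% to 67.1%. With the GC trend removed from each library, the log2 fold change was 0.68 for FBXO5, 0.57 for UBE2T, 0.41 for CUL4B and 0.27 for USP16, and of these USP16 lost an unadjusted p under 0.05 in limma (0.131). On the other side it was −0.50 for FBXO2, −0.49 for FBXL8, −0.48 for TRIM47 and −0.52 for USP5, each with an unadjusted p under 0.05. The median over the E2 enzymes was then 0.04 and over the cullins 0.04.

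**Figure D5:**
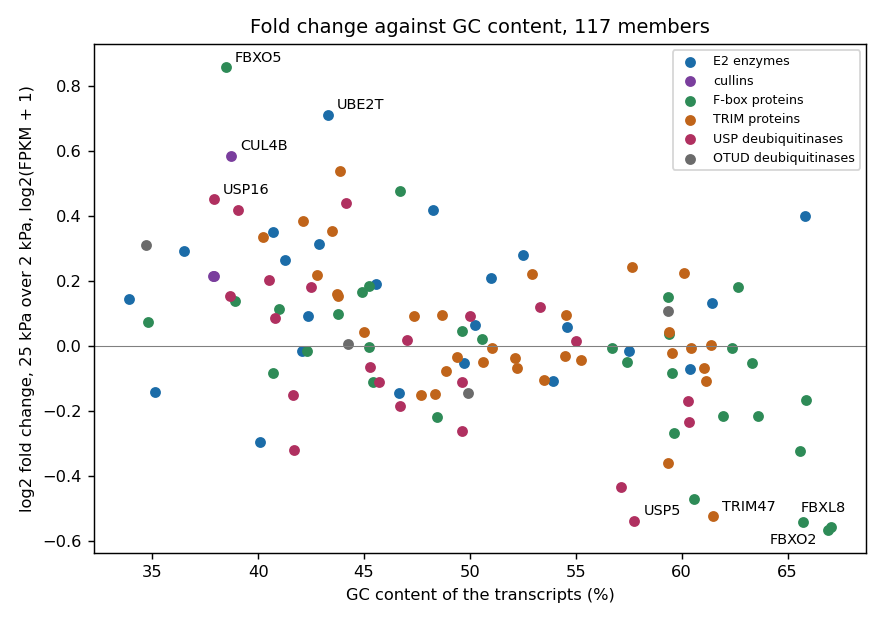
Log2 fold change (25 kPa over 2 kPa, log2(FPKM + 1) scale) against the GC content of the transcripts for 117 members, coloured by class, with the 8 members of unadjusted p under 0.05 named. Members of low GC content lie more often above 0 and those of high GC content below it (Pearson's r = −0.508 across genes).

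Libraries also differed within a group. Replicate 2 at 2 kPa was the highest of its 3 libraries for 70 members (59.3%, against 49.2% of all genes), and replicate 2 at 25 kPa was the lowest of its 3 for 64 members (54.2%, against 43.7% of all genes). The median coefficient of variation over the 85 members of at least 1 FPKM was 18.9% at 2 kPa and 18.4% at 25 kPa. Without replicate 2 at 25 kPa, 27 members were higher without overlap in place of 12, against 21.2% of all genes in place of 11.2%. When replicate 2 at 2 kPa was left out, 22 members were higher without overlap, against 21.1% of all genes. Removing a library makes overlap less likely by itself. Of the 85 members, FBXL16 and USP9X had the largest ratios of the highest to the lowest library at 25 kPa, 6.03 and 4.87.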

How the data were processed

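RNA of SW480 cells was sequenced from 3 wells at 2 kPa and 3 at 25 kPa, and libraries were assigned to groups from the deposited labels. The authors deposited 1 FPKM value per gene symbol and library, after quality assessment and prediction of coding potential. The submitters' processing notes name HISAT, StringTie, Bowtie2 and RSEM and the build hg18, with no order or role. The annotation, the filter that left 8529 genes and the strand of the libraries are not given in the sources used here. A step that purified small RNA is described as well. The methods name DESeq2, which models counts and was not run, because FPKM are not counts. FPKM do not hold the number of reads. The study's methods state a depth and an average data size, but no read count for each library. No counting error is given, and the precision rests on the spread between libraries.

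Log2(FPKM + 1) was computed, and all 8529 genes were fitted in R 4.3.3 by limma 3.58.1, using lmFit without a replicate block and eBayes with its trend option, two-sided, and with Benjamini-Hochberg adjustment over all genes and a threshold of 0.05. Tables and figures were made in Python 3.11.15 with pandas 2.3.3 and matplotlib 3.10.9. The fit was checked on simulated data with changes larger than that of any member. That check therefore does not show how often changes of the sizes reported here would be called. Promoter windows of 250 bases before to 50 after the start and gene overlaps came from RefSeq (GRCh38.p14), and GC content and length came from GENCODE transcripts for 8183 genes (95.9%). Apart from the promoter windows shown, RefSeq coordinates are not printed, since the build differs from that of the files.

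The members and gene lists were chosen with earlier results of these data known. The members named are those with an unadjusted p under 0.05 and no overlap, every cullin and OTUD gene, and the listed members. In each class they are also the 3 highest, the lowest and the extreme fold changes. From the companion lists come the extremes and the genes with both an unadjusted p under 0.05 and no overlap. Most other companion genes without overlap are not named. UBA1 and TRIM74 are named outside these choices. Some values that these choices cover are not reported here. USP5 (the lowest fold change of its class) is covered by the extremes. UBE2L3, UBE2G2, FBXW2, FBXL19, USP15, USP9X, FBXL16 and GAPDH, with the list genes DDB1 and SKP1, were named after their values were seen. The 14 alternatives set with the design were a pseudocount of 0.1 or 0.01, a filter at a mean of 1 FPKM, median centring, quantile normalisation, rescaling to equal sums, eBayes with no trend, a replicate block and each library left out. Removal of a GC or length trend (lowess, span 0.3) and leaving out replicate 3 at 2 kPa with replicate 2 at 25 kPa, the 3 others, were chosen after seeing the data.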

Additional observations from a re-analysis of the deposited data

How the results depend on the processing

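The count of members with an adjusted p under 0.05 by limma was 0 in all 17 alternatives. The log2 fold change of 0 to 25 of the 118 members changed sign, the most without replicate 2 at 25 kPa. Of 1682 values of the members whose groups overlapped and whose unadjusted p was 0.05 or more, 95 moved by at least 1 standard error. The number of all genes called ranged from 3 to 18. For the E2 enzymes the median log2 fold change of 0.13 was 0.19 at a mean FPKM of at least 1, 0.020 with equal library sums, 0.059 with quantile normalisation, 0.082 with median centring, 0.044 with the GC trend removed, 0.066 with the length trend removed and 0.059 without replicate 3 at 2 kPa and replicate 2 at 25 kPa. For the cullins it was 0.22, and 0.58 and 0.64 with pseudocounts of 0.1 and 0.01, 0.40 at a mean FPKM of at least 1, 0.037 with the GC trend removed and 0.33 without those 2 libraries, where the OTUD median was −0.08. Members higher without overlap numbered 12 (11.2% of all genes), and 4 with equal sums (5.33%), 6 with the GC trend removed (7.77%) and 33 without the 2 libraries (25.4%). Members lower without overlap numbered 4 (4.78% of all genes), and 10 with quantile normalisation (7.64%), 13 with median centring (7.03%), 11 with the GC trend removed (7.69%), 11 with the length trend removed (7.86%) and 19 without the 2 libraries (15.5%). Members lower at an unadjusted p under 0.05 numbered 4 (3.19% of all genes), and 8 with the GC trend removed (4.75%). The scaling also moved the split over all genes: 68.6% of the calls at an unadjusted p under 0.05 were higher at 25 kPa with the deposited FPKM, against 42.7% with equal sums, 51.1% with quantile normalisation and 49.9% with median centring. The cause of these shifts was not tested.

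Leaving out each library in turn gave medians of 0.08 to 0.18 for the E2 enzymes, 0.16 to 0.48 for the cullins, −0.05 to 0.02 for the F-box proteins, −0.059 to 0.10 for the TRIM proteins, −0.09 to 0.06 for the USP genes and −0.14 to 0.15 for the OTUD genes. It gave 3 to 7 members higher and 2 to 6 lower at an unadjusted p under 0.05, and 15 to 27 higher and 5 to 13 lower without overlap, with 0 adjusted calls each time. Over all genes the shares were 5.02% to 8.5% and 2.27% to 3.51% by p, and 14.8% to 21.2% and 7.22% to 10.2% without overlap. The most members higher by p, 7, came without replicate 2 at 2 kPa, and the fewest lower, 2, without replicate 1 at 2 kPa or replicate 2 at 25 kPa.

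The labels do not say whether the replicate numbers pair the libraries. The deviations of same-numbered libraries from their group means correlated at 0.115, −0.267 and −0.125, and those of differently numbered ones at −0.238 to 0.294. Deviations from a mean of 3 libraries sum to 0, so these correlations cannot settle whether same-numbered wells were handled together. With the replicate number as a block, 3 members were higher and 2 lower at an unadjusted p under 0.05 (5.58% and 2.78% of all genes), 0 passed the adjusted threshold, the smallest adjusted p was 0.333 for UBE2T, and 3 of all genes were called in place of 10. Not every library correlated best with its own number.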
